A study of Mus musculus with 136 samples.

Results

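The change of the visceral yolk sac transcriptome within the ninth day of gestation was followed in pregnancies of diabetic dams. The members are the 33 yolk sac libraries of diabetic pregnancies, of 136 libraries in the series, without batch-control duplicates. Of these, 17 came from concepti with 5 or 6 somite pairs, called the earlier yolk sacs here, and 16 from concepti with 7, 8 or 9, called the later yolk sacs. The somite number is that in the label of the embryo of the same conceptus, since the yolk sac labels carry none. There were 13 concepti with 5, 4 with 6, 4 with 7, 9 with 8 and 3 with 9 somite pairs.

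Both groups were dissected at E8.5 from chow-fed NOD dams, a strain whose diabetes arises without an inducing agent. The labels name no other treatment. The sires were normoglycemic NOD males. The 17 earlier yolk sacs came from 9 litters of dams with 449 to 595 mg/dl blood glucose, with 1 litter for which the label gives no number but a reading above the scale, and 12 were labelled male and 5 female. The 16 later yolk sacs came from 6 litters of dams with 423 to 568 mg/dl, and 8 were labelled male and 8 female. In all there were 12 litters, of which 3 gave yolk sacs of both stages: D24M15 (2 earlier, 7 later), D28M23 (3 and 2) and D28M36 (1 and 2). The p-values below treat littermates as independent concepti. Counts from a fit with the litter as a fixed block, which rests on those 3 litters alone, are given for most gene lists. In whole tissue, more cells of a type and more RNA per cell cannot be told apart. Labels do not tie a library to a sequencing run, so run and stage cannot be told apart for any stage change below.

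The visceral yolk sac is a bilayer of endoderm and mesoderm around the embryo. Its endoderm takes up maternal proteins and lipids, breaks them down in lysosomes, and secretes serum proteins and lipoproteins long before the fetal liver does so. Its mesoderm forms the blood islands, where primitive red cells and the first endothelium arise, and the primitive red cells enter the embryo when the circulation starts. These functions are established over the days around the first somites.

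QuantSeq libraries read 3′ ends of transcripts, and molecules were counted by a random tag. Totals were 1694117 to 3888137 counts in the earlier (median 2572872) and 1017901 to 3122678 in the later yolk sacs (median 2640922), and their means did not differ beyond the spread (2565758 and 2409030, permutation test, two-sided, p = 0.434). Counts were scaled by DESeq2 size factors from all 66 yolk sacs and are called normalized counts. The markers of visceral endoderm summed to 9935 to 40770 normalized counts over the 33 libraries. A pair of libraries stood apart, the 7-somite yolk sac D28M36C, the shallowest, with a median correlation of 0.826 with the others, and the 6-somite yolk sac D28M02G, with 0.872; in the others it was 0.925 to 0.961. Markers of tissue next to the yolk sac were counted too. The sum of 15 trophoblast markers was 569 to 6417 in the earlier (median 2111) and 321 to 2382 in the later yolk sacs (median 1230), while Prl3d1 and Tpbpa, which define giant cells and the spongiotrophoblast, had a median of 0 in both groups. Markers of maternal granulocytes summed to at most 23.9, and Camp, Elane and Ngp were at 0 in all 33 libraries. The sum of 12 decidua markers was 67.9 to 486 in the earlier (median 98.8) and 68.6 to 864 in the later yolk sacs (median 167), of which Prl8a2, a decidual prolactin, had up to 669.5 normalized counts with medians of 9.37 and 5.72. Of its 4 tested genes 2 were raised, Cryab by 0.97 and Dcn by 1.05 on the log2 scale, neither with the litter block (adjusted p = 0.0757 and 0.102). Dcn is also a matrix gene of the mesoderm, and the part of decidua in its change was not tested.

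Of 10469 genes tested, 3525 changed with stage (33.7%; edgeR quasi-likelihood test, adjusted p under 0.05 by Benjamini-Hochberg). In the later yolk sacs 1884 genes were raised (18% of those tested) and 1641 lowered (15.7%). Each list count below is to be read against these shares. Most changes were small: the median size was 0.51 on the log2 scale among raised and 0.43 among lowered genes, and only 90 and 56 exceeded 2-fold, where 2-fold is 1 on the log2 scale. The median over all genes tested was 0.01. With the litter as a fixed block, 583 genes were raised (5.57%) and 529 lowered (5.05%), and 1064 of these 1112 were among the 3525. Of the 3525 genes, 3518 had the same sign in that fit (99.8%), against 86.1% of all genes tested, and 30.2% of the 3525 were called again. Both fits use the same 33 libraries, and the 3525 were chosen by their values in them. Without the libraries D28M36C and D28M02G, 2191 genes were raised and 2102 lowered. Without litter D24M15, which gave 7 of the 16 later yolk sacs, 1419 were raised and 1034 lowered.

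**Figure D1:**
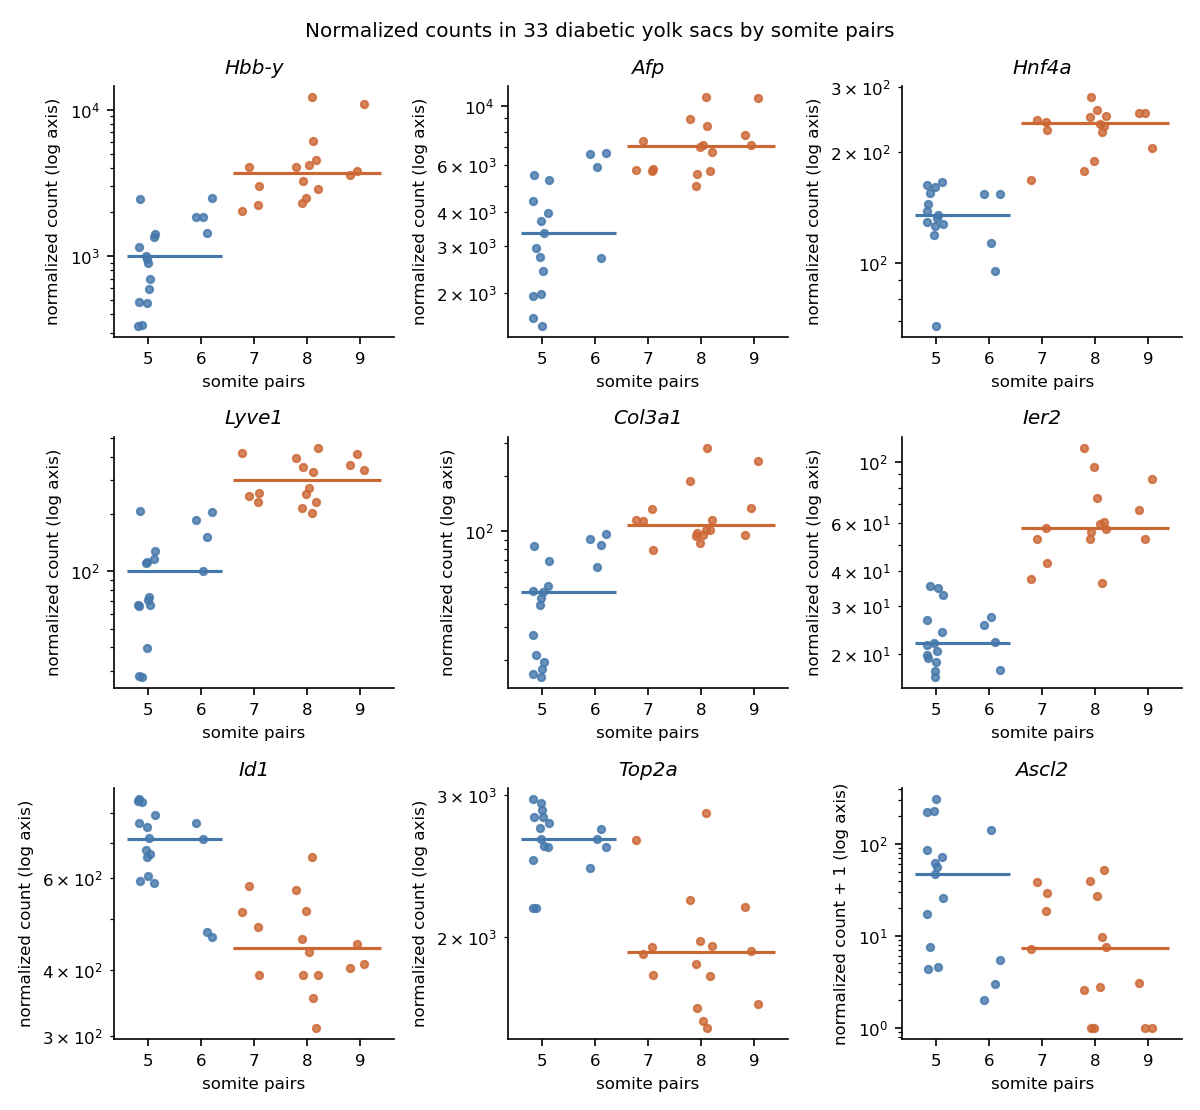
Normalized counts (log axis; for Ascl2, count plus 1) of 9 genes in each of the 33 diabetic yolk sacs against the somite pairs of the conceptus, with 1 point per yolk sac and a line at the median of each stage group. Hnf4a and Ier2 do not overlap between the 5–6 somite (blue) and the 7–9 somite group (orange), Hbb-y, Afp, Lyve1 and Col3a1 lie higher and Id1 and Top2a lower in the later group with overlap, and Ascl2 spans 0.979 to 305 normalized counts among the earlier yolk sacs.

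Transcripts of the primitive red cell series were raised. Among the globins, Hbb-y, the embryonic epsilon-like beta-globin (ENSMUSG00000052187; chromosome 7, 103851749 to 103853216, GRCm38), had 334 to 2510 normalized counts in the earlier yolk sacs (median 998) and 2043 to 12140 in the later ones (median 3682). The groups overlapped, with 12 of 16 later yolk sacs above the highest earlier one. The log2 fold change was 1.94 (standard error 0.28, adjusted p = 2.01e-06, edgeR), and 1.73 with the litter block (adjusted p = 0.00719). Hba-x, the embryonic zeta-like alpha-globin (ENSMUSG00000055609; chromosome 11, 32276400 to 32278116), had 610 to 3150 (median 1682) against 1823 to 19370 (median 5135), with 14 of 16 above the highest earlier value. Its log2 fold change was 1.76 (standard error 0.25, adjusted p = 1.3e-06), with its highest count in D28M36C. Hbb-bh1, another beta-globin of primitive red cells, had 2486 to 8496 (median 4333) against 3561 to 22640 (median 8206), a log2 fold change of 0.93 (adjusted p = 1.92e-04; 0.0552 with the litter block). The genes of the adult type split: Hba-a1 was raised by 1.08, while Hbb-bs and Hbb-bt had log2 fold changes of 0.29 and 0.11 (adjusted p = 0.485 and 0.719). Hbb-bs was called without litter D28M53 (log2 fold change 0.85, adjusted p = 0.0214), and Hbb-bt was -0.053 without D28M31. These 3 share 82%, 67.9% and 36.3% of the 50-base words of their 3′ ends with other genes, so their reads may be split between copies. In all, 4 of 6 tested globin genes were raised, 3 of them also with the litter block, and the median log2 fold change of the list was 1.01.

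The start of Hbb-y is shown for the globins, with the 120 bases before the RefSeq start site (GRCm38.p6), read toward the gene, at chr7:103853208-103853327 on the minus strand. Capitals mark letters of 7 short motifs searched on both strands which were AGATAA as bound by GATA factors, CACACCC as bound by erythroid Klf factors, TATAAA of the TATA box, CCAAT as bound by NF-Y, GGGCGG as bound by Sp factors, ACGTG as the core of hypoxia elements, and TGACTCA as bound by AP-1.
Hbb-y: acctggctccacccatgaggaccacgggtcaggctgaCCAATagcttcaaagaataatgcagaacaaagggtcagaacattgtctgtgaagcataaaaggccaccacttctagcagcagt
The window held CCAAT, 83 to 79 bases before the start, and none of the other motifs as spelled here. Of 27025 windows of this length in the table, 22.1% hold CCAAT on either strand. No window of Hbb-bh1 was found in that table.

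Enzymes of heme synthesis were raised along with the globins, 7 of 16 tested, and 1, Slc25a39, was lowered (median 0.32). With the litter block 4 were raised and Slc25a39 was not called (adjusted p = 0.48). Alas2, the erythroid enzyme of the first step, rose by 0.89 on the log2 scale (medians 67.8 and 123, adjusted p = 8.13e-06), Urod by 0.73 and Alad by 0.60. All 3 were called with the litter block. Of 23 genes of the red cell membrane and of maturation, 10 were raised and none lowered (median 0.38, 4 raised with the litter block). Among them were Slc4a1, the anion exchanger band 3, with medians of 29.6 and 79.6 normalized counts and a log2 fold change of 1.31 (adjusted p = 0.00168; 0.0531 with the litter block), and Hemgn, a nuclear protein of red cell precursors, at 0.99. Among 17 blood transcription factors the directions were mixed, with 5 raised and 3 lowered (2 and 0 with the litter block). Gata1, which drives the red cell program, rose by 0.78 (medians 35.1 and 49.5, adjusted p = 9.11e-04; 0.0522 with the litter block). Runx1, needed for definitive blood, fell by 0.57 on the log2 scale (medians 53.8 and 38.0, adjusted p = 0.00879; 0.582 with the litter block), with 7 of 16 later yolk sacs below the lowest earlier one.

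The endothelial list changed in both directions, 8 of 28 raised and 4 lowered, with a median of 0.14 (5 and 1 with the litter block). Lyve1, a hyaluronan receptor (ENSMUSG00000030787; chromosome 7, 110850607 to 110863239), had 27.96 to 207 normalized counts in the earlier yolk sacs (median 101) and 202 to 442 in the later ones (median 302). A single later yolk sac lay within the earlier range. The log2 fold change was 1.57 (standard error 0.21, adjusted p = 4.58e-07; 1.81 with the litter block). Tie1, a receptor of endothelium, rose by 0.95, Nos3, the endothelial nitric oxide synthase, by 0.54 and Aplnr, the apelin receptor, by 0.70 on the log2 scale. Pecam1, the junction protein CD31, fell instead: it had 53.1 to 103 (median 82.0) against 38.4 to 65.5 (median 48.5), and 10 of 16 later yolk sacs lay below the lowest earlier one. Its log2 fold change was -0.64 (standard error 0.10, adjusted p = 1.42e-05), and -0.72 with the litter block (adjusted p = 0.00365). Etv2, the factor that starts the blood and endothelial lineages, was low, with medians of 12.7 and 5.35 and a log2 fold change of -0.88 (adjusted p = 0.00763), and Fli1 fell by 0.58. Tie1, Etv2 and Fli1 were not called with the litter block (adjusted p = 0.0568, 0.0522 and 0.0934), nor was Etv2 with the trophoblast level in the fit (-0.52, adjusted p = 0.128). Of 15 genes of macrophages and megakaryocytes, 3 were tested and 2 raised, among them Mrc1, the mannose receptor (0.74 on the log2 scale, adjusted p = 0.00181), while C1qb was at 0 in all 33 libraries. Csf2rb, the common beta chain of cytokine receptors, rose from a median of 3.55 to 17.2 normalized counts, a log2 fold change of 1.73 (adjusted p = 3.98e-04).

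**Figure D2:**
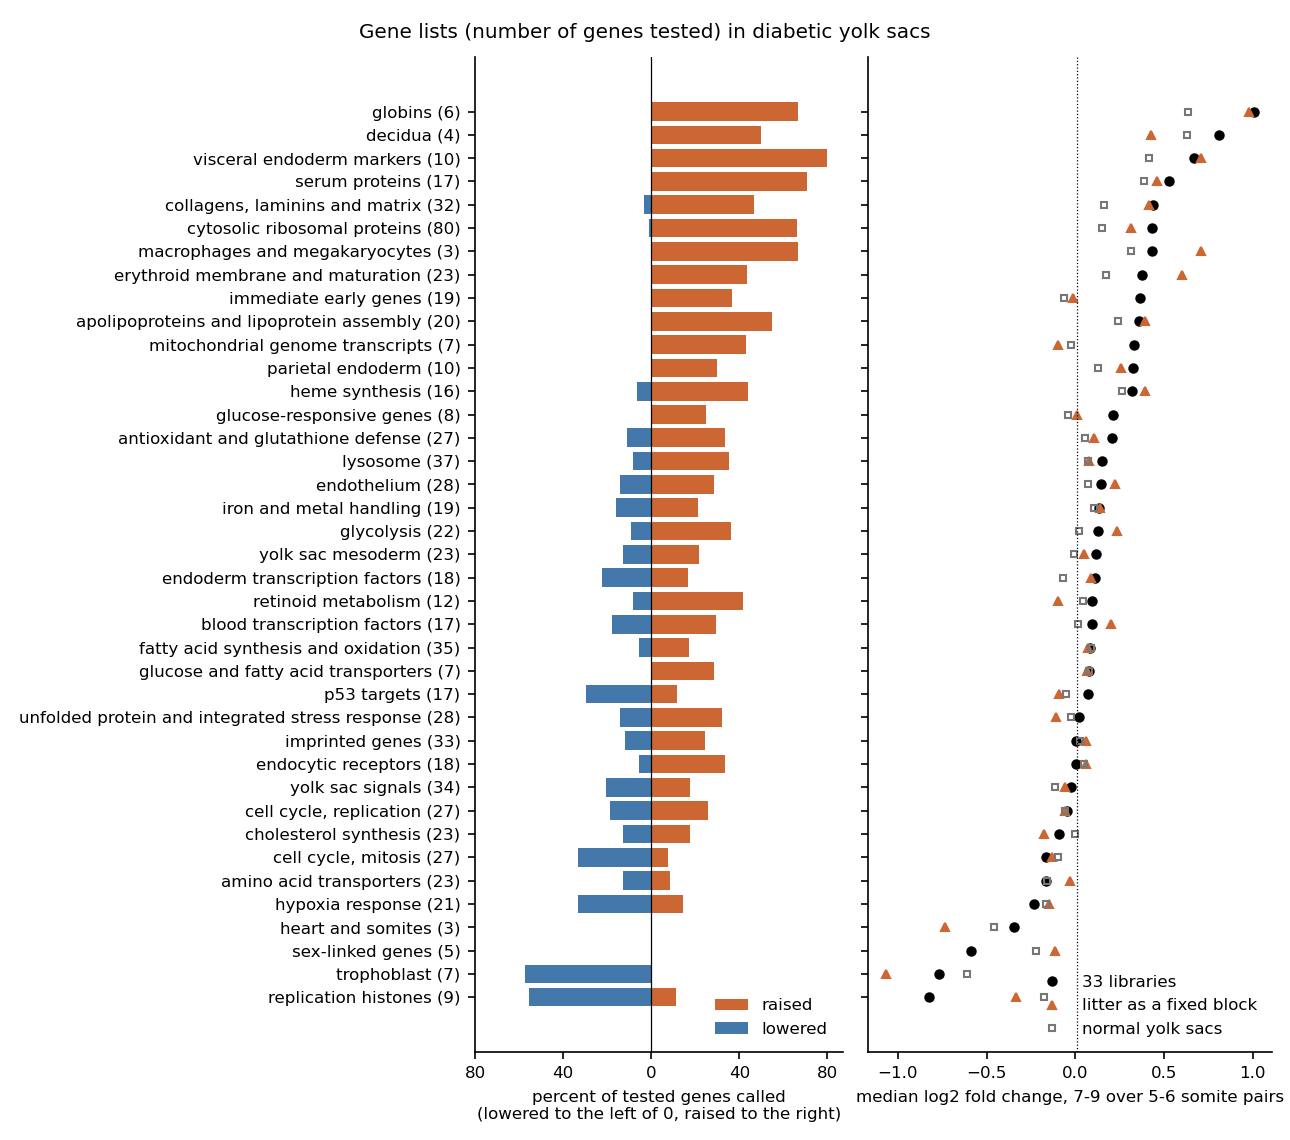
For each gene list, the percent of tested genes raised (orange, right of 0) and lowered (blue, left of 0) in later diabetic yolk sacs, and beside it the median log2 fold change over the list in the 33 libraries (black points), with the litter as a fixed block (triangles) and in normal yolk sacs (squares); the dotted line is the median over all genes tested. Globins, visceral endoderm markers and serum proteins lie to the right with medians of 1.01, 0.67 and 0.53, trophoblast markers and replication histones to the left with -0.77 and -0.82, and the lists of immediate early genes and mitochondrial transcripts are near 0 with the litter block.

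Products of the visceral endoderm were raised. Of 10 markers tested, 8 were raised and none lowered (median 0.67), 7 of them also with the litter block. Afp, the alpha-fetoprotein (ENSMUSG00000054932; chromosome 5, 90490737 to 90508907), had 1504 to 6675 normalized counts in the earlier yolk sacs (median 3333) and 5035 to 10770 in the later ones (median 7084). The groups overlapped, with 10 of 16 later yolk sacs above the highest earlier one. Its log2 fold change was 0.96 (standard error 0.18, adjusted p = 8.57e-05; 0.0479 with the litter block). Hnf4a, the nuclear receptor that maintains the endoderm's secretory program (ENSMUSG00000017950; chromosome 2, 163506808 to 163572910), had 67.9 to 166 (median 135) against 168 to 281 (median 239). Its groups did not overlap, and the log2 fold change was 0.79 (standard error 0.09, adjusted p = 8.54e-08; 0.86 with the litter block, adjusted p = 2.34e-04). Rbp4, the carrier of retinol in serum, had 2194 to 5388 (median 4221) against 2370 to 9638 (median 7411), with 14 of 16 later yolk sacs above the highest earlier one and a log2 fold change of 0.79. Ttr, the transthyretin that carries thyroxine and Rbp4, rose by 0.44 (medians 5012 and 6754, adjusted p = 0.0137), and by 0.25 with the litter block, where it was not called (adjusted p = 0.44). The adjusted p of Ttr was 0.0784 without litter D28M31 and 0.101 without D28M53. With the trophoblast level in the fit its change was 0.35 (adjusted p = 0.0651). Cubn, the endocytic receptor cubilin, rose by 0.50 (adjusted p = 0.00704), but by 0.18 without litter D24M15 (adjusted p = 0.394). The other two markers were not called. Amn, the membrane partner of cubilin, had medians of 983 and 881 normalized counts and a log2 fold change of -0.12 (adjusted p = 0.272; -0.19, adjusted p = 0.0482, without litter D28M36). Apob, the main protein of secreted lipoproteins, had 525 to 4346 (median 2143) against 542 to 8557 (median 1120), a log2 fold change of -0.40 (adjusted p = 0.294). Without litter D28M36 it was -0.95 (adjusted p = 9.1e-04) and without its library D28M36C alone -0.88 (adjusted p = 9.89e-04).

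The 120 bases before the start of Afp, shown as the classical secreted product of this endoderm, are at chr5:90490594-90490713 on the plus strand, with the same motifs in capitals.
Afp: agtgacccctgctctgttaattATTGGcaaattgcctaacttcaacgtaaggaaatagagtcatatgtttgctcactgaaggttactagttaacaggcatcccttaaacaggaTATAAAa
The window held TATAAA, 7 to 2 bases before this start, and CCAAT on the other strand, 98 to 94 bases before it. These distances are from the RefSeq start. The GENCODE start of Afp given above lies further downstream, so both motifs are farther from that one. TATAAA is in 6.76% of all windows of this length.

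The lists of secreted proteins overlap with these markers. Of 17 serum protein genes tested, 12 were raised and none lowered (median 0.53, 5 raised with the litter block), with Afp, Rbp4 and Ttr among the 12. Fga, the alpha chain of fibrinogen, had 60.2 to 171 (median 101) against 99.8 to 410.5 (median 178), a log2 fold change of 1.01 (adjusted p = 1.03e-05), and Fgb and Fgg, its other chains, were among the 12. Spp2 rose by 1.17 on the log2 scale and Trf, the transferrin that brings iron to red cells, by 0.53, though 68.9% of the 3′ words of Trf occur in another gene. Fgb, Fgg, Trf and Apoe were not called with the litter block (adjusted p = 0.0539, 0.129, 0.163 and 0.264). Of 20 genes of apolipoproteins and lipoprotein assembly, 11 were raised and none lowered (median 0.36, 7 raised with the litter block), with the markers Apoa1, Apoa4 and Apom among the 11. Apoa1, the main protein of high density lipoprotein, had 822 to 2241 (median 1423) against 1795 to 3877 (median 2354), with 9 of 16 later yolk sacs above the highest earlier one and a log2 fold change of 0.84 (standard error 0.12, adjusted p = 3.61e-06). Apoc1, Apoa2 and Apom rose by 0.91, 0.88 and 0.66. Apoe, the ligand of lipoprotein receptors, had medians of 3861 and 4887 and a change of 0.31 (adjusted p = 0.02), which was 0.19 without litter D28M36 (adjusted p = 0.11). It was 0.25 without D28M53 (adjusted p = 0.114), and the adjusted p was 0.057 without D28M23 and 0.0535 without D28M31. With the trophoblast level in the fit the change of Apoe was 0.12 (adjusted p = 0.32). Mttp, which loads lipid onto Apob, was not called.

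Uptake and breakdown showed less of a common direction. Of 18 endocytic receptor genes 6 were raised and 1 lowered, with a median of 0.01 (4 and 1 with the litter block). Scarb1, a receptor of high density lipoprotein, rose by 0.50 (medians 180 and 248, adjusted p = 2.43e-05) and Fcgrt, the neonatal Fc receptor, by 0.71. Stab2, a scavenger receptor, rose from a median of 16.8 to 51.1 normalized counts, by 1.21 on the log2 scale. Lrp2, the megalin that works with cubilin, was not called. Of 37 lysosomal genes 13 were raised and 3 lowered (median 0.15), and with the litter block 4 and 1. Ctsb, the protease cathepsin B, had 707 to 1236 (median 974) against 1188 to 2002 (median 1530), a log2 fold change of 0.63 (standard error 0.08, adjusted p = 7.34e-07), and Lipa, the lysosomal acid lipase, rose by 0.50. Of 18 endoderm transcription factors 3 were raised and 4 lowered (1 and 1 with the litter block). Besides Hnf4a among the raised ones, Eomes, a T-box factor of the early endoderm, fell by 0.82 (medians 25.5 and 14.95, adjusted p = 2.09e-04) and Prox1 fell by 0.62 (adjusted p = 0.118 with the litter block). The 23 genes of cholesterol synthesis as a whole had 4 raised, 3 lowered and a median of -0.09, near the shares over all genes tested (18% and 15.7%).

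Of 32 tested matrix genes 15 were raised and 1 lowered (median 0.44, and 8 raised with the litter block). Col3a1, a fibrillar collagen (ENSMUSG00000026043; chromosome 1, 45311538 to 45349706), had 16.2 to 96.0 normalized counts in the earlier yolk sacs (median 46.6) and 79.2 to 281 in the later ones (median 108). The groups overlapped, with 11 of 16 later yolk sacs above all earlier ones, and the log2 fold change was 1.39 (standard error 0.23, adjusted p = 1.56e-05). Lum, the collagen-binding lumican, had 9.87 to 117 (median 40.3) against 84.2 to 388 (median 165) and a log2 fold change of 1.75 (adjusted p = 3.29e-06; 1.72 with the litter block). Postn rose by 1.14, Col1a2 by 0.83, Col1a1 by 0.81 and the basement membrane collagen Col4a1 by 0.47 on the log2 scale. Vcan, the proteoglycan versican, was the lowered member (-0.41, adjusted p = 0.0019). Col4a1 and Vcan were not called with the litter block (adjusted p = 0.0712 and 0.34). Of 10 tested parietal endoderm markers 3 were raised, Col4a1 and Lama1 among them, and the sum of that list was 2726 to 5465 (median 3239) against 2893 to 7215 (median 3840), whose part in the matrix changes was not tested. Of 23 genes of yolk sac mesoderm 5 were raised and 3 lowered, near the shares over all genes tested (18% and 15.7%). Krt18, a keratin, had 349 to 762 (median 458) against 657 to 2616 (median 944), a log2 fold change of 1.06, and Krt8 and the intermediate filament gene Vim rose by 0.76 and 0.68. Bmp4, the growth factor of the extraembryonic mesoderm, rose by 0.83 (medians 49.95 and 87.02, adjusted p = 9.52e-05; 0.255 with the litter block). Tagln, a smooth muscle gene, fell by 1.29 on the log2 scale (medians 12.8 and 4.84, adjusted p = 7.12e-05).

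**Figure D3:**
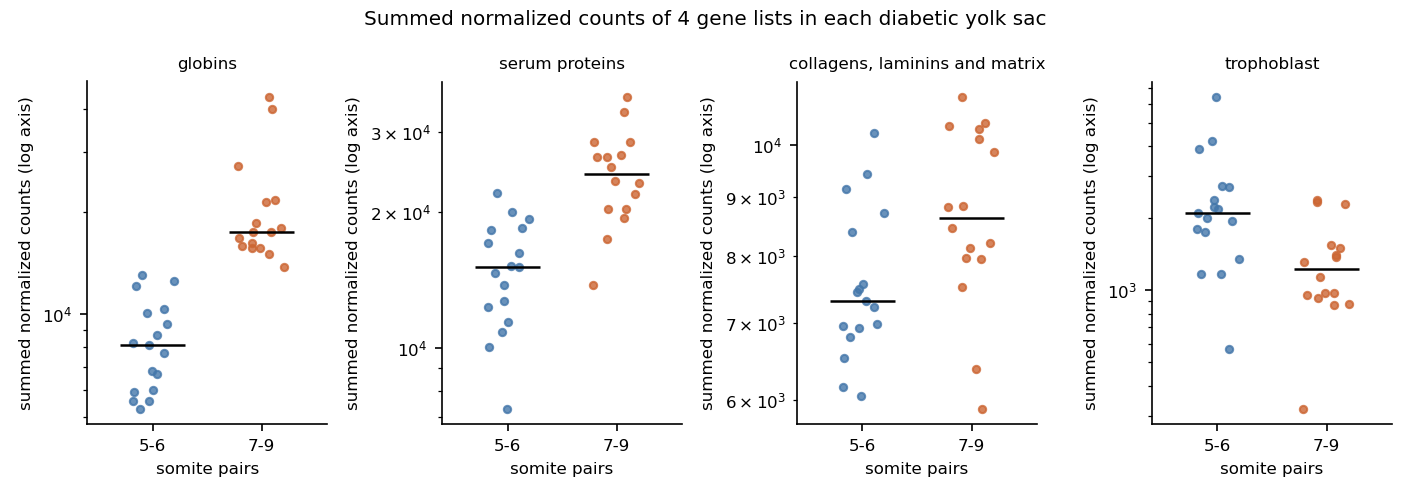
Summed normalized counts (log axis) of the globins, serum proteins, collagens and other matrix genes, and trophoblast markers in each earlier and later diabetic yolk sac, with 1 point per yolk sac and a line at the median. The globin sums do not overlap (5294 to 13050 and 13730 to 43320), the serum protein and matrix sums do, and the trophoblast sums fell from a median of 2111 to 1230.

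Immediate early genes, transcribed within minutes of a stimulus, included several of the named raised genes. Fos (ENSMUSG00000021250; chromosome 12, 85473890 to 85477273) had 1.40 to 18.1 normalized counts in the earlier yolk sacs (median 5.67) and 3.62 to 208 in the later ones (median 19.9). The groups overlapped, with 10 of 16 later yolk sacs above the highest earlier one. The log2 fold change was 2.34 (standard error 0.43, adjusted p = 6.88e-05), and 1.40 with the litter block (adjusted p = 0.0463). Egr1 had 3.90 to 77.8 (median 15.8) against 26.8 to 410 (median 52.0), a log2 fold change of 1.87 (adjusted p = 3.32e-04), and 0.89 with the litter block (adjusted p = 0.227). Ier2 (ENSMUSG00000053560; chromosome 8, 84661331 to 84662852) had 16.6 to 35.4 (median 21.9) against 36.2 to 112 (median 57.2). Its groups did not overlap, and the log2 fold change was 1.41 (standard error 0.14, adjusted p = 2.36e-09; 1.13 with the litter block, adjusted p = 7.67e-04). Jun, Atf3, Cyr61 and Ctgf rose by 1.42, 1.30, 1.51 and 1.57 on the log2 scale, and of these Atf3 was also called with the litter block, while Jun, Cyr61 and Ctgf were at 0.72, 0.70 and 1.19 there (adjusted p = 0.0806, 0.281 and 0.14). In all 7 of 19 tested were raised and none lowered, 3 with the litter block, where the median of the list was -0.01 in place of 0.37. Within the 3 litters with both stages, the mean log2 normalized count plus 1 of Fos was higher in the later yolk sacs by 3.33 in D28M36, by 0.72 in D24M15 and by 0.29 in D28M23.

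The start of Fos is shown as that of the named gene with the second largest rise, at chr12:85473770-85473889 on the plus strand, with the same motifs in capitals.
Fos: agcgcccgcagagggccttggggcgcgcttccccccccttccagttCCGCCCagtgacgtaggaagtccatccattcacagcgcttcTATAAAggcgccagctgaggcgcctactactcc
The window held TATAAA, 33 to 28 bases before the start, and GGGCGG on the other strand, 74 to 69 bases before it. GGGCGG is in 26.9% of all windows of this length.

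Genes for ribosomal proteins were raised in number. Of 80 tested, 53 were raised and 1, Rps4l, lowered (median 0.44), and with the litter block 12 were raised and 1 lowered (median 0.31). Rps4l was not called without litter D24M15, D28M36 or D28M53 (log2 fold changes -0.25, -0.24 and -0.28, against -0.31). Rps15 had 460.5 to 692 (median 611) against 723 to 1880 (median 1007) with no overlap, and a log2 fold change of 0.78 (standard error 0.09, adjusted p = 4.32e-08). Rpl41 rose by 0.85. Such genes have many processed copies in the genome, and 50.4% and 31% of the 3′ words of Rps15 and Rpl41 occur elsewhere. Over all genes, 17.4% of those without a shared word were raised, against 22.3% of those that share over 10% to 50% and 31.3% of those that share over 50%; the part of shared sequence in these changes was not tested. Gapdh, a glycolytic enzyme with 50.3% shared words, had 4.01 to 133 (median 75.7) against 97.8 to 532 (median 246), a log2 fold change of 1.90 (adjusted p = 7.11e-08), and Ubb, a ubiquitin gene with 84.8%, one of 1.66. Ftl1, the ferritin light chain, with 79.2%, rose by 1.11 and Fth1, the heavy chain, with 6.09%, by 0.58.

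Cox4i1 and Atp5a1, 2 of the genes whose groups did not overlap, were singled out after their values were seen. Cox4i1, a subunit of cytochrome oxidase with 0.886% shared words (ENSMUSG00000031818; chromosome 8, 120668222 to 120674207), had 372 to 496 (median 420) against 502 to 942 (median 710), a log2 fold change of 0.71 (standard error 0.08, adjusted p = 1.87e-08). It was higher in the later yolk sacs by 0.72, 0.74 and 0.71 on the log2 scale within the 3 litters with both stages. The sign of these differences was fixed by that choice, since the groups do not overlap. Atp5a1, a subunit of ATP synthase, had 1250 to 1809 (median 1644) against 1869 to 2491 (median 2163), a change of 0.41 (adjusted p = 4.77e-06). Of the 7 tested transcripts of the mitochondrial genome 3 were raised (median 0.33), with mt-Nd4 at 0.74, but none with the litter block (median -0.10), where mt-Nd4 was at 0.26. Of 22 genes of glycolysis and lactate transport 8 were raised and 2 lowered (2 and 2 with the litter block). Pklr, the pyruvate kinase of liver and red cells, rose by 0.78 (medians 13.04 and 24.1, adjusted p = 5.94e-05), and Slc16a3, a lactate exporter, fell by 0.90 (medians 211 and 103, adjusted p = 2.66e-04).

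Of 22 genes that carry glucose and fatty acids, 7 were tested and 2 raised. Slc2a1, the glucose transporter of most embryonic cells, had 1403 to 2795 (median 2042) against 1291 to 3486 (median 2688), a log2 fold change of 0.38 (standard error 0.10, adjusted p = 0.00298). It was 0.30 without litter D24M15 (adjusted p = 0.077) and 0.23 with the litter block (adjusted p = 0.343). Cpt2, which passes fatty acids to oxidation in mitochondria, rose by 0.48 (adjusted p = 4.31e-04; 0.107 with the litter block). Slc2a3, a high-affinity glucose transporter, had 4349 to 9181 (median 6868) against 3109 to 8977 (median 7165), a log2 fold change of 0.02 with a standard error of 0.10 (adjusted p = 0.904), and its sign changed between settings. Slc2a2, the transporter of absorptive and liver-like epithelia, had 640 to 1254 (median 965) against 789 to 1422 (median 1071), a log2 fold change of 0.20 (adjusted p = 0.0688), and it was called without litter D24M22 (0.23, adjusted p = 0.0398) and without D28M23 (0.25, adjusted p = 0.0488).

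Cd74, the invariant chain of class II histocompatibility molecules, had the largest fitted change of the named genes. It had 1 count in 3 earlier yolk sacs and none in the other 14, and more than 3 counts in all 16 later ones, up to 68 in D28M36C. Over the groups this was 3 against 419 counts, a ratio of depth-scaled counts of 158 (exact 95% interval 53.7 to 769, for counting error only), and of 136 (46.2 to 663) without D28M36C. The step at 7 somite pairs was not particular to the diabetic yolk sac: in normal yolk sacs 17 earlier libraries had at most 1 count and 15 of 16 later ones more than 3, and in diabetic embryos 17 had at most 1 and all 16 later ones more than 3. Genes that act with Cd74 did not follow it. H2-Aa had 7 counts in the earlier and 2 in the later group, H2-Ab1 30 and 33, and H2-Eb1 70 and 57, and Ciita, the activator of all of them, 0 and 1. The labels mention several sequencing runs without saying which library was in which, so that run and stage cannot be told apart. This holds for the other stage changes as well as for Cd74.

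**Figure D4:**
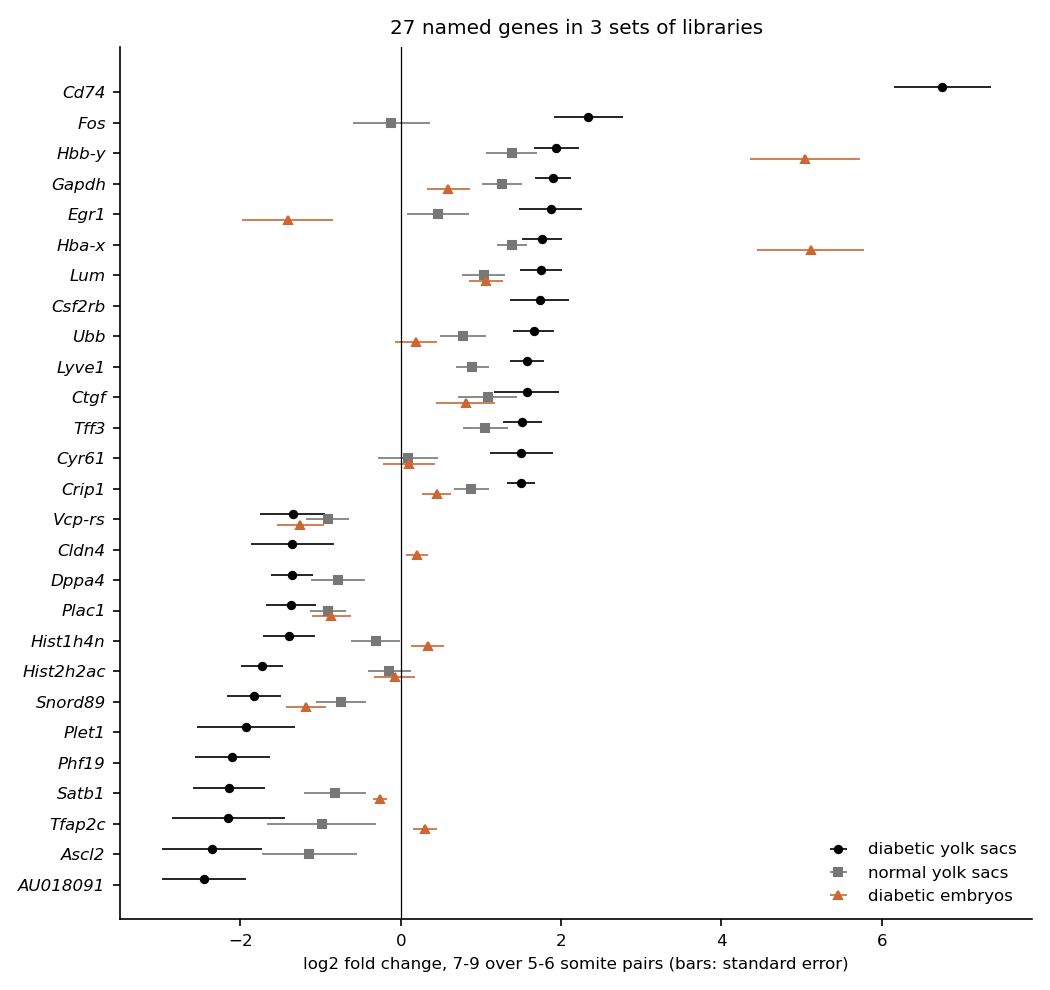
Log2 fold changes between the stages with standard errors for 27 named genes in diabetic yolk sacs (black points), normal yolk sacs (gray squares) and diabetic embryos (orange triangles); a missing symbol means that the gene was not tested in those libraries. In normal yolk sacs Hbb-y lies at 1.39 and Fos at -0.12, against 1.94 and 2.34 in diabetic ones, and in embryos Hbb-y and Hba-x lie above 5.

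Other raised genes with a large change were Tff3, a trefoil peptide, from a median of 6.32 to 18.4 normalized counts (log2 fold change 1.52, adjusted p = 9.96e-06), and Crip1, from 19.6 to 60.3 (1.5, adjusted p = 6.72e-08). In retinoid metabolism 5 of 12 genes were raised and 1 lowered (3 and 1 with the litter block). Dhrs3, which reduces retinaldehyde to retinol, had 8.11 to 30.2 (median 17.3) against 28.6 to 78.0 (median 36.7), a log2 fold change of 1.18 (standard error 0.16, adjusted p = 8.85e-07), and Bco1, which cleaves carotene, rose by 0.98. Cyp26a1, which degrades retinoic acid, fell by 0.91 (medians 185 and 123, adjusted p = 0.00218). Of 33 imprinted genes 8 were raised and 4 lowered (4 and 2 with the litter block), with Plagl1 and Cdkn1c, both restraints on growth, raised by 0.95 and 0.60 on the log2 scale. In the antioxidant list 9 of 27 were raised and 3 lowered (median 0.21), in amino acid transporters 2 and 3 of 23, in the stress response 9 and 4 of 28, and Asns, the asparagine synthetase of that list, rose by 0.74. With the litter block the counts of these 3 lists were 6 and 2, 1 and 1, and 5 and 1. The other lists were fatty acid metabolism (6 raised and 2 lowered of 35), iron handling (4 and 3 of 19), p53 targets (2 and 5 of 17) and glucose-responsive genes (2 and 0 of 8). With the litter block these were 1 and 0, 2 and 2, 1 and 2, and 1 and 0. Over all genes tested 18% were raised and 15.7% lowered, and the counts of several of these lists are near those shares.

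The named lowered genes included several known from trophoblast. Ascl2, a factor that maintains trophoblast progenitors (ENSMUSG00000009248; chromosome 7, 142966829 to 142969264), had 0.979 to 305 normalized counts in the earlier yolk sacs (median 46.6) and 0 to 51.6 in the later ones (median 6.43). The groups overlapped widely, and the counts in the 3 yolk sacs with the highest trophoblast sums, D28M36B, D28M53B and D28M53A (sums 6417, 4219 and 3880), were 305, 228.5 and 224. The log2 fold change of Ascl2 was -2.35 (standard error 0.62, adjusted p = 0.00343; 0.0814 with the litter block). Of the 7 tested trophoblast markers 4 were lowered and none raised (median -0.77), and with the litter block 1, Phlda2, was. When the trophoblast sum was added to the fit, an alternative chosen after seeing the data, the log2 fold change of Ascl2 was -0.13 (adjusted p = 0.856) and that of Plac1 -0.27 (adjusted p = 0.231), against -1.37 without it. Tfap2c, Plet1 and Cldn4, at -2.15, -1.93 and -1.35 (adjusted p = 0.0163, 0.0135 and 0.0398), were then at 0.79, 0.67 and 0.45 and not called. With the litter as a fixed block they were at -1.71, -0.75 and -1.74 (adjusted p = 0.261, 0.61 and 0.101), and as a random block at -0.97, -0.70 and -0.44 (adjusted p = 0.519, 0.376 and 0.654), none called. DESeq2 gave -0.30 for Plet1 (adjusted p = 0.689) and -1.42 for Cldn4 (adjusted p = 0.0692). Plac1 was not called with the fixed block either (adjusted p = 0.0706). Ascl2, Plac1 and Tfap2c are themselves part of that sum. Tfap2c also lost its call without litter D28M36 (adjusted p = 0.0841) or D28M53 (adjusted p = 0.0822), Plet1 without D28M36 (-1.07, adjusted p = 0.134), and Cldn4 without D23M26, D24M15, D28M24 or D28M36 (adjusted p = 0.0529, 0.111, 0.0564 and 0.154). Of 129 single genes called by the main test, 103 were called with it. With the trophoblast level in the fit, 1869 genes were raised and 1689 lowered in all.

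The start of Ascl2 stands for this group, at chr7:142969265-142969384 on the minus strand, with the same motifs in capitals.
Ascl2: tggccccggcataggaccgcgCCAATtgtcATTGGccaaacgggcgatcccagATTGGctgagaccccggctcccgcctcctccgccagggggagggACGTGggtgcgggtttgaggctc
The window held CCAAT on either strand at 99 to 95, 90 to 86 and 67 to 63 bases before the start, and ACGTG at 23 to 19, which is in 9.36% of all windows of this length. Motif shares among raised and lowered genes are not given, since only 78% of the tested genes matched a window.

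Of 9 tested replication histone genes 5 were lowered and 1 raised (median -0.82), and with the litter block 1 was lowered and the median was -0.34. Hist2h2ac had 6.63 to 62.2 (median 24.6) against 3.68 to 21.8 (median 5.83), with 9 of 16 later yolk sacs below the lowest earlier one and a log2 fold change of -1.73 (standard error 0.26, adjusted p = 4.75e-06). Hist1h4n changed by -1.40 (adjusted p = 0.0846 with the litter block), with 88.8% of its 3′ words shared. Of 14 small nucleolar RNAs 6 were lowered and 1 raised, with Snord89 at -1.83 (medians 187 and 48.0, adjusted p = 6.73e-05; 0.139 with the litter block). Among further lowered genes, Satb1, a chromatin organizer, changed by -2.14 (adjusted p = 0.0523 with the litter block), Phf19, a Polycomb cofactor, by -2.10, Dppa4, a gene of early pluripotent cells, by -1.36 and AU018091, of which little is known, by -2.46. Of these AU018091, Satb1 and Phf19 were not called with the trophoblast level in the fit. Vcp-rs, a copy of Vcp with 85.7% shared words, was at -1.35 (adjusted p = 0.01) and at -2.08 without library D28M36C. It was not called with the litter block (-0.61, adjusted p = 0.447), with the title number added (-0.98, adjusted p = 0.0588) or without litter D24M15 (-1.08, adjusted p = 0.132). Snord89, Hist2h2ac, Hist1h4n and Vcp-rs each had their highest earlier count in D28M02G and their highest later count in D28M36C. For Snord89 these were 572.9 and 265.1. Why the libraries that stood apart were highest was not tested. How fully 3′ libraries capture replication histone transcripts and small nucleolar RNAs was not tested either. All 129 single genes called by the main test were also called without both libraries.

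Of 27 tested genes of mitosis 9 were lowered and 2 raised (median -0.17), and 2 were lowered with the litter block. Top2a, the topoisomerase of dividing cells (ENSMUSG00000020914; chromosome 11, 98992943 to 99024189), had 2170 to 2961 normalized counts in the earlier yolk sacs (median 2645) and 1542 to 2847 in the later ones (median 1912). In 12 of 16 later yolk sacs it was below the lowest earlier value, and the log2 fold change was -0.43 (standard error 0.08, adjusted p = 4.37e-05). Plk1, a kinase of mitotic entry, fell by 0.58 and Kif11, a spindle motor, by 0.48 (adjusted p = 0.108 with the litter block). Birc5, the survivin of the mitotic spindle, was raised instead, by 0.33 (adjusted p = 0.00524; 0.668 with the litter block). Of 27 replication genes 7 were raised and 5 lowered (0 and 3 with the litter block). Lmnb1, the lamin B1 of the nuclear envelope, fell without overlap of the groups, from 895 to 1916 (median 1094) to 346 to 830 (median 616), by 0.92 on the log2 scale (standard error 0.11, adjusted p = 4.36e-08). Zzz3, a subunit of a histone acetyltransferase complex, had 270 to 329 (median 305) against 176 to 251 (median 203), a log2 fold change of -0.56 (standard error 0.06, adjusted p = 2.1e-08).

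Among 34 tested signaling genes of the yolk sac 7 were lowered and 6 raised, near the shares over all genes tested (15.7% and 18%). With the litter block 4 were lowered (5.05% of all genes tested). Id1, a direct BMP target (ENSMUSG00000042745; chromosome 2, 152736251 to 152737410), had 463 to 848 (median 712) against 311 to 658 (median 441). In 10 of 16 later yolk sacs it was below the lowest earlier value, and the log2 fold change was -0.60 (standard error 0.09, adjusted p = 9.76e-06; -0.77 with the litter block, adjusted p = 9.2e-04). Smad7 and Smad6, inhibitors in the same pathway, fell by 0.70 and 0.60 on the log2 scale, and both were called with the litter block. Ihh, the hedgehog ligand of the endoderm, and its receptor Ptch1 were not called.

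In the hypoxia list 7 of 21 genes were lowered and 3 raised (median -0.23), and with the litter block 2 and 0. Bnip3, a mitophagy receptor, had 501 to 951 (median 644) against 260.5 to 688 (median 397), a log2 fold change of -0.63 (standard error 0.11, adjusted p = 2.59e-05), and Hif1a, the oxygen-regulated factor, fell by 0.32 (adjusted p = 0.0586 with the litter block). The 3 raised genes, Ldha, Pgk1 and Slc2a1, belong to glucose use, and Vegfa was not called.

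Some genes separated the groups without overlap. In 18 of 10469 genes (0.172%) the lowest later value lay above the highest earlier one, and in 5 (0.0478%) the highest later value lay below the lowest earlier one. Among the first were Asl, Aspscr1, Atp5a1, Cd74, Cox4i1, Ghdc, Haus7, Hnf4a, Ier2, Mov10, Mrpl52, Ndufb10, Ndufs7, Prr5, Rps15, Ubxn4 and Xpnpep1, the second Lmnb1, Pip5k1a, Wdr82, Zbtb43 and Zzz3; they were singled out after their values were seen. Mean normalized counts by somite number show how such genes moved. Zzz3 had 303, 304, 194, 208 and 215 at 5, 6, 7, 8 and 9 somite pairs, and Hnf4a 136, 129, 221, 234 and 238, so that both stepped between 6 and 7. As for Cd74, such a step cannot be told apart from a difference between sequencing runs. Lyve1 had 85.4, 160, 289, 299 and 372, and Hbb-y 934, 1917, 2844, 4664 and 6100, so that both rose at each number. With somite number as a slope within the earlier group, 105 of 9450 genes were called (1.11%), 92 of them raised (0.974% of those tested), and within the later group 0 of 9341, with 338 at an unadjusted p under 0.05, by the same test. Only 4 earlier yolk sacs had 6 and 3 later ones 9 somite pairs. These fits were chosen after seeing the data.

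The same stages were then compared in yolk sacs of normal NOD dams, which share no library with the diabetic ones. There 785 of 10013 genes changed (7.84%), 483 raised (4.82%) and 302 lowered (3.02%). Among 3414 genes called in diabetic yolk sacs and tested in both, 3299 had the same sign in normal yolk sacs (96.6%; 80.5% of all genes tested in both). Called in both were 695 genes, which is 20.4% of those 3414 and 88.5% of the 785 called in normal yolk sacs, with none in opposite directions. The median ratio of the normal to the diabetic log2 fold change among the 3414 was 0.56; those genes were chosen by their diabetic values. Hbb-y had medians of 1311 and 4185 normalized counts in the earlier and later normal yolk sacs (log2 fold change 1.39, adjusted p = 0.00559), Hnf4a 149 and 201 (0.45, adjusted p = 0.00559) and Id1 670 and 545 (-0.39, adjusted p = 0.029). Fos, with medians of 13.1 and 9.45, had a log2 fold change of -0.12 (adjusted p = 0.912), and Jun, with 44.6 and 30.5, one of -0.46 (adjusted p = 0.459).

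The difference between the changes was tested as an interaction of stage with maternal diabetes in all 66 yolk sacs. edgeR called 0 of 10857 genes (0%), with 634 at an unadjusted p under 0.05 and a smallest adjusted p of 0.394, and DESeq2 called 0 as well. For Fos the change was larger in diabetic yolk sacs by 2.45 on the log2 scale (standard error 0.69, adjusted p = 0.43), for Jun by 1.88 (adjusted p = 0.394), and for Hist2h2ac it was lower by -1.58 (standard error 0.39, adjusted p = 0.394). For Hbb-y the difference was 0.56 (standard error 0.44), for Afp 0.23 and for Id1 -0.20.

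**Figure D5:**
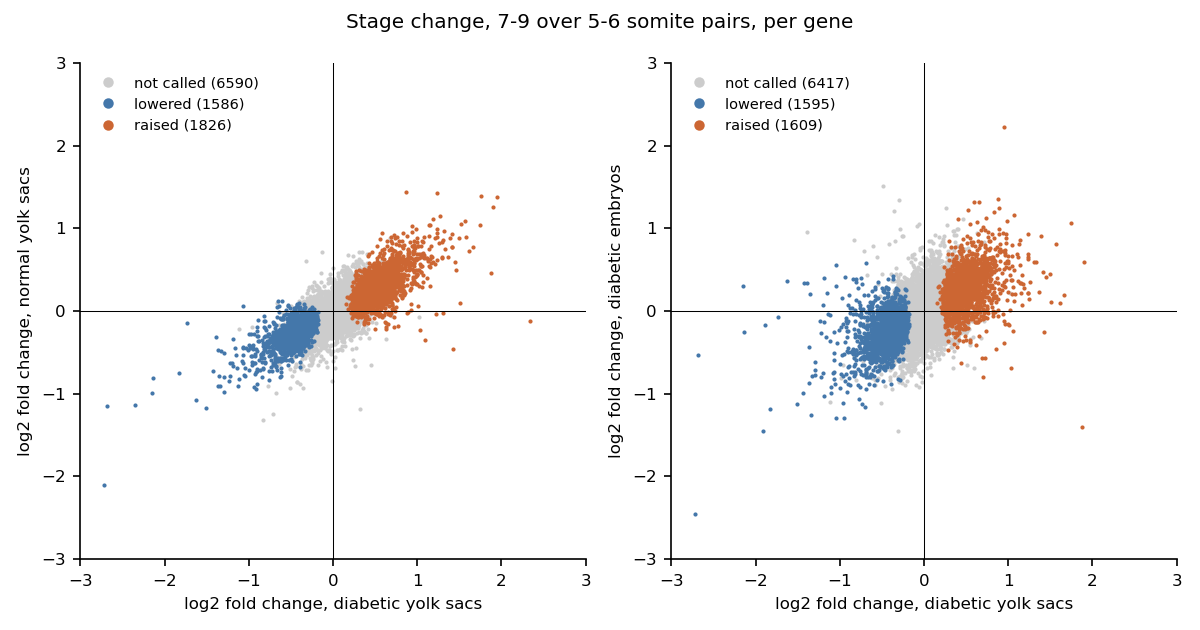
Log2 fold change between the stages per gene in diabetic yolk sacs (x axis) against normal yolk sacs (left) and diabetic embryos (right), with genes called in diabetic yolk sacs in orange (raised) and blue (lowered) and other genes in gray. Both axes end at 3 on either side. A log2 fold change beyond 3 was found for 4 tested genes, in diabetic yolk sacs, normal yolk sacs or diabetic embryos. Called genes lie mostly in the quadrants of equal sign on the left (96.6%) and less so on the right (88.2%).

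Embryos of the same 33 concepti gave the change in the other tissue, where 3124 of 10711 genes changed (29.2%), 1622 raised (15.1%) and 1502 lowered (14%). Among 3206 genes called in yolk sacs and tested in both tissues, 2828 had the same sign in embryos (88.2%; 72.3% of all genes tested in both), and 1531 were called in both with the same sign and 17 with opposite signs. The interaction of stage with tissue was called for 213 of 11757 genes (1.81%), 84 with a higher (0.714%) and 129 with a lower change in the yolk sac (1.1%). With the conceptus as a block it was 101 and 156. Of the tested globins, Hba-x, Hbb-y and Hbb-bh1 changed more in the embryo, and for Hba-a1, Hbb-bs and Hbb-bt the difference was not called (adjusted p = 0.658, 0.677 and 0.931). Hba-x had medians of 6.95 and 80.7 normalized counts in embryos, with 14.8 to 1745 in the later ones, and a log2 fold change of 5.11 there, so that the difference between the tissues was -3.35 (standard error 0.67, adjusted p = 0.0037). That of Hbb-bh1 was -2.95 (adjusted p = 0.0037) and that of Hbb-y -3.10 (adjusted p = 0.0137). With the conceptus as a block these were smaller, at -2.06 for Hba-x (adjusted p = 0.0313), -2.002 for Hbb-bh1 (adjusted p = 0.0493) and -1.67 for Hbb-y, which was no longer called (adjusted p = 0.136). Among genes with a higher change in the yolk sac were Egr1, with medians of 12.9 and 15.5 in embryos and a difference of 3.28 (standard error 0.71, adjusted p = 0.00737), which was 2.19 and not called with the conceptus block (adjusted p = 0.0515), Fos with 3.05 (adjusted p = 0.0158; 2.35 with the block, adjusted p = 0.016) and Ier2 with 0.95 (adjusted p = 0.00914). Slc2a1, raised in yolk sacs, had medians of 2168 and 1935 in embryos and a difference of 0.57 (standard error 0.14, adjusted p = 0.0158). Lmnb1, with 1657 and 1445 in embryos, differed by -0.73 (adjusted p = 0.00737), and Plk1 by -0.75 (adjusted p = 0.00732). Without litter D24M15 the interaction was called for 17 genes, and Egr1, Fos, Ier2, Slc2a1, Lmnb1 and Plk1 were not among them, while Hba-x and Hbb-bh1 were called without each litter in turn. Without litter D28M02, D28M36 or D28M53 it was called for 141, 89 and 77 genes.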

How the data were processed

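QuantSeq 3′ FWD libraries of yolk sacs and embryos were sequenced, and the authors deposited one table of raw counts per gene: reads were aligned with STAR to mm10, collapsed by unique molecular identifier and counted with HTSeq, per the submitters' processing notes and the study's methods (versions are not given in the sources used here). The table holds 47643 genes in 136 libraries, and 4 batch-control duplicates were left out. Reads that match several genes can be lost or split in such counting, so the share of 50-base words in each 3′ end that occurs in another gene was computed from the reference transcripts.

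Members were found by title, and the somite number and litter came from the labels of the same conceptus. The main test was edgeR's quasi-likelihood test (4.0.16, R 4.3.3) on the deposited counts, with TMM normalization, filterByExpr and a Benjamini-Hochberg threshold of 0.05, on the 33 libraries without covariates. Normalized counts used DESeq2 size factors (1.42.0). A litter block, random litter block (limma 3.58.1), litter sums, DESeq2, another normalization, other filters, sex, a continuous somite number and each litter left out were alternatives. The fits without the libraries standing apart, with a trophoblast level, without genes of shared 3′ ends and within each stage group were added after seeing the data. Yolk sac and embryo are paired because both come from the same conceptus, and the conceptus block was an alternative in the test of the tissues. The members and the gene lists were chosen with earlier results of these data known. Named genes were the 14 a direction with the largest fold change among called genes, and 5 a direction for each interaction. The 14 a direction needed a mean of 20 normalized counts in 1 group and the same sign with the litter block. From each list the called members and the 4 with the largest mean could be named, but only some members, called or not, are described. Predicted genes were left out. Gene positions are from GENCODE M21 and start windows from RefSeq, both on GRCm38. The scripts were tested on simulated data. Intervals cover counting error only. Labels do not tie a library to a sequencing run. No source says whether concepti of a litter were handled apart, so p-values measure the spread between these concepti. A few genes are not reported here.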

Additional observations from a re-analysis of the deposited data

Results flagged for a closer look

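The 213 genes whose stage change differed between yolk sac and embryo of the same diabetic concepti were singled out because the difference itself passed the test of stage by tissue (edgeR, Benjamini-Hochberg). The values here are differences of the log2 fold change, yolk sac minus embryo, for genes the text could name. Values without a block come first. The change was higher in the yolk sac for the immediate early genes Egr1 (3.28), Fos (3.05), Jun (1.68) and Ier2 (0.95), for Nepn (2.61) and Akr1c19 (1.56), for Dcn (1.29), on the matrix and decidua lists, the keratins Krt8 (0.59) and Krt18 (0.77), the ribosomal protein gene Rpl41 (0.70), the glucose transporter Slc2a1 (0.57), Dhrs3 (0.90), Gapdh (1.32), Ubb (1.48) and Crip1 (1.05). It was lower in the yolk sac for the globins Hba-x (-3.35), Hbb-y (-3.10) and Hbb-bh1 (-2.95), for the erythroid genes Trim10 (-2.73) and Klf1 (-1.87), for the heart factor Nkx2-5 (-2.37), for Pecam1 (-0.71), Slc16a3 (-0.97), Plk1 (-0.75), Lmnb1 (-0.73), Satb1 (-1.86) and Dppa4 (-1.92), and for the histones Hist2h2ac (-1.65) and Hist1h4n (-1.74).

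With the conceptus as a block, which pairs the tissues, Egr1 (2.19, adjusted p = 0.0515), Nepn (2.38, 0.0841), Jun (1.08, 0.0783), Hbb-y (-1.67, 0.136), Trim10 (-2.73, 0.0784), Klf1 (-1.54, 0.0849), Rpl41 (0.60, 0.0813) and Satb1 (-1.20, 0.12) were not called, while the other 21 genes named here were. Several of these rest on few counts or few concepti. Trim10 had no count in any of the 17 earlier embryos, so its difference depends on the prior count of the fit. Nepn had medians of 0.888 and 2.52 normalized counts in yolk sacs, against 138 and 143 in embryos, and Nkx2-5 had 0.932 and 0 against 18.99 and 25.8. In 1 earlier embryo Egr1 reached 534 normalized counts, where the median was 12.9. Without litter D24M15, 25 of these 29 genes were not called.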

How the results depend on the processing

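Of 135 single genes tested for stage, 129 were called, of which 126 were called by DESeq2, 121 with the litter as a random block, 108 with counts summed per litter, 79 with the litter as a fixed block, and 104 with each litter left out in turn. These genes were selected for the text, and the named ones had to keep their sign with the litter block. Of all 3525 called genes, 1064 were also called with the fixed block (30.2%). The number of genes that changed with stage was 1112 with the litter as a fixed block and between 2453 and 3691 with each litter left out; within the earlier group 105 genes changed with somite number and within the later group 0, with 338 at an unadjusted p under 0.05. The interaction of stage and diabetes gave 0 to 1 called genes with each litter left out. The interaction of stage and tissue gave 94 genes with no filter on low counts and 17 to 267 with each litter left out. With the conceptus as a block, which pairs yolk sac and embryo, it gave 257 in place of 213.

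The sign of the log2 fold change turned for Hbb-bt, between -0.053 (without litter D28M31) and 0.39 (without D28M53), for Apob with the fixed litter block (0.068), and for Slc2a3 with the fixed (-0.015) and random litter block (-0.0098) and with the title number added (-0.023); with each litter left out Slc2a3 was between -0.028 (without D28M53) and 0.051 (without D28M23). With the trophoblast level added it changed for Gata2 (0.28), Tfap2c (0.79), Plet1 (0.67) and Cldn4 (0.45). The cause was not tested. The fixed block uses only 3 litters with both stages, and genes under about 10 counts a library were mostly not tested.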
